A study of Arabidopsis thaliana with 13 samples.

Results

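The genes described here are those whose expression difference between small and large Arabidopsis seeds changed from one time point of imbibition to the other. They were found by testing the interaction of seed size and time in single-seed 3′ RNA-seq libraries, and 28 of 6754 genes tested passed a false discovery rate (FDR, Benjamini-Hochberg adjusted p) of 0.05, which is 0.415% of them. The study sequenced seeds of the accession Col-0 one by one to ask whether seed size within a pool is linked to gene expression while secondary dormancy is induced. Secondary dormancy is the renewed loss of the ability to germinate that non-dormant seeds show after stress during imbibition. All seeds were after-ripened, that is, stored dry for at least 6 months, and were then placed on wet paper at 30 °C in darkness. The seeds called 3d were collected after 3 days of this treatment. Those called 7d + 24h spent 7 days in it and then 24 h in constant light at a lower temperature, a recovery that allows germination. Small and large seeds are the lower and upper ends of the size distribution of the pool, so seeds of intermediate size were not sampled and the sizes share genotype and storage. Longer time in the dark, the shift to light and the drop in temperature are joined in the second time point and cannot be told apart.

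Each of the 4 groups of size and time held 3 libraries of 32 seeds, and counts were summed over the seeds of a library. The 12 libraries, of 13 samples in the series, held 2326352 to 3209763 counts on genes at 3d and 3987045 to 5851052 at 7d + 24h. Reads outside annotated genes made up 10.3 to 10.9% of the counted reads in small seeds and 10.9 to 11.8% in large seeds at 3d. At 7d + 24h this intergenic share was 7.69 to 8.22% in large seeds and 7.78 to 13.5% in small seeds, the highest being that of library 3. Libraries of one group correlated on log2 CPM with Pearson coefficients from 0.92 to 0.99 across genes, and no 2 of them agreed within sampling noise. Genes whose share of a seed's counts rose with the intergenic share were left out, and this took away 5324 of the 12078 genes that averaged 1 or more counts per seed, most storage protein mRNAs among them. The study's methods describe the 3 libraries of a group as separately barcoded sets of seeds from a single condition and seed pool. They are not separate plants or treatments, so the p-values measure only the spread between sets of seeds, part of which may be technical.

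Light and gibberellin are the main signals that bring an imbibed Arabidopsis seed to germination. Phytochromes, the red and far-red photoreceptors, relieve repression by bHLH transcription factors, and gibberellin removes the DELLA proteins, which hold back germination and growth. Abscisic acid acts in the other direction, and the balance of these pathways is known to set whether a seed stays dormant.

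The interaction is the log2 difference small minus large at 3d less the same difference at 7d + 24h. It was positive in 11 genes (0.163% of those tested) and negative in 17 (0.252%), and 638 genes had an unadjusted p below 0.05 in the edgeR test. DESeq2 called 27 genes, 24 of them among the 28. By the same edgeR fit, 22 genes (0.326%) differed between sizes at 3d and 93 (1.38%) at 7d + 24h. These numbers are not alike in depth, since the genes tested held 441960 to 562400 counts per library at 3d and 1737500 to 3115900 later. A difference not past the threshold at 3d may therefore have been missed. Over all genes tested, whatever the other time point, 14 (0.207%) were higher in small and 8 (0.118%) in large seeds at 3d. At 7d + 24h, 53 (0.785%) were higher in small and 40 (0.592%) in large seeds. Of the 11 positive genes, 5 were higher in small seeds at 3d and not past the threshold later. Another 5 were higher in large seeds at 7d + 24h and not past the threshold before, and 1 passed at neither time point. Of the 17 negative genes, 6 were higher in large seeds at 3d only, 7 were higher in small seeds at 7d + 24h only and 4 passed at neither. None of the 28 genes passed at both time points. These classes describe the parts of the tested contrast and add no test of their own. The values of small and large libraries did not overlap in 23 of the 28 genes at 3d and in 18 at 7d + 24h, against 12.3% and 27.1% of all genes tested, and nothing is read from this because the contrast chose the genes.

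**Figure D1:**
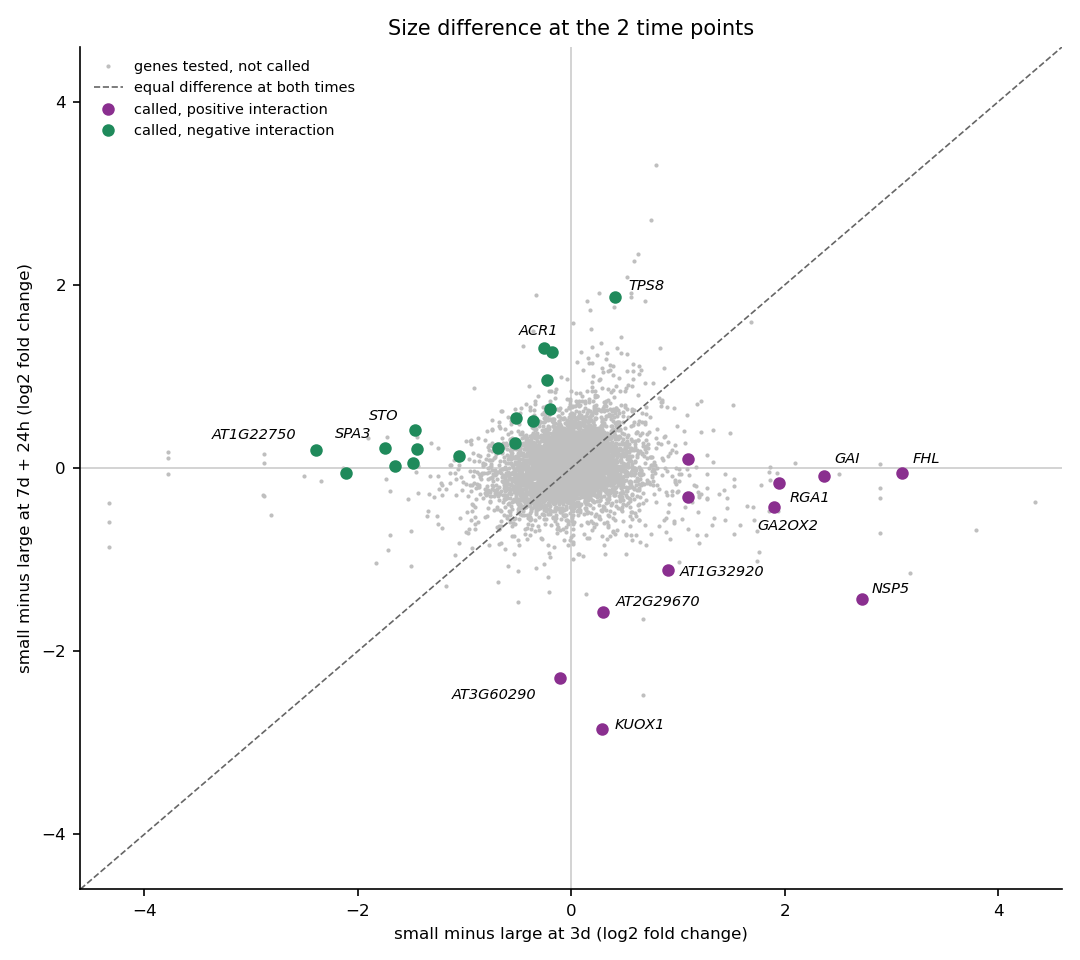
Size difference of each gene tested at both time points, as log2 fold change of small over large seeds at 3d (horizontal axis) and at 7d + 24h (vertical axis). Grey points are genes not called, purple and green points the 11 positive and 17 negative genes, and the dashed line marks an equal difference at both times. FHL, GAI, RGA1 and GA2OX2 lie far to the right near a difference of 0 at 7d + 24h, while AT3G60290 and KUOX1 lie far below 0 near a difference of 0 at 3d (3 grey points lie outside the axes).

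The calls differed in how far they rested on single libraries. FHL, GAI, GA2OX2, RGA1, NSP5, AT3G60290, STO and ACR1, 8 genes in all, were called in each of the 12 fits that left out 1 library. GAI, RGA1 and GA2OX2, 3 genes, were called in every other setting that gave them a value as well. AAPT2, AT1G22750, AT5G63130 and LIL3:2 were called in none of the 12 fits. Without libraries 1, 2 and 3 of small seeds at 3d, 13, 15 and 11 of the 28 genes were still called, and without libraries 1, 2 and 3 of large seeds at 3d 9, 8 and 17 were. At 7d + 24h the numbers were 11, 19 and 14 without the small seed libraries and 15, 8 and 8 without the large seed libraries. None of the 28 genes changed the sign of its interaction in any of the 22 alternatives that gave it a value.

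**Figure D2:**
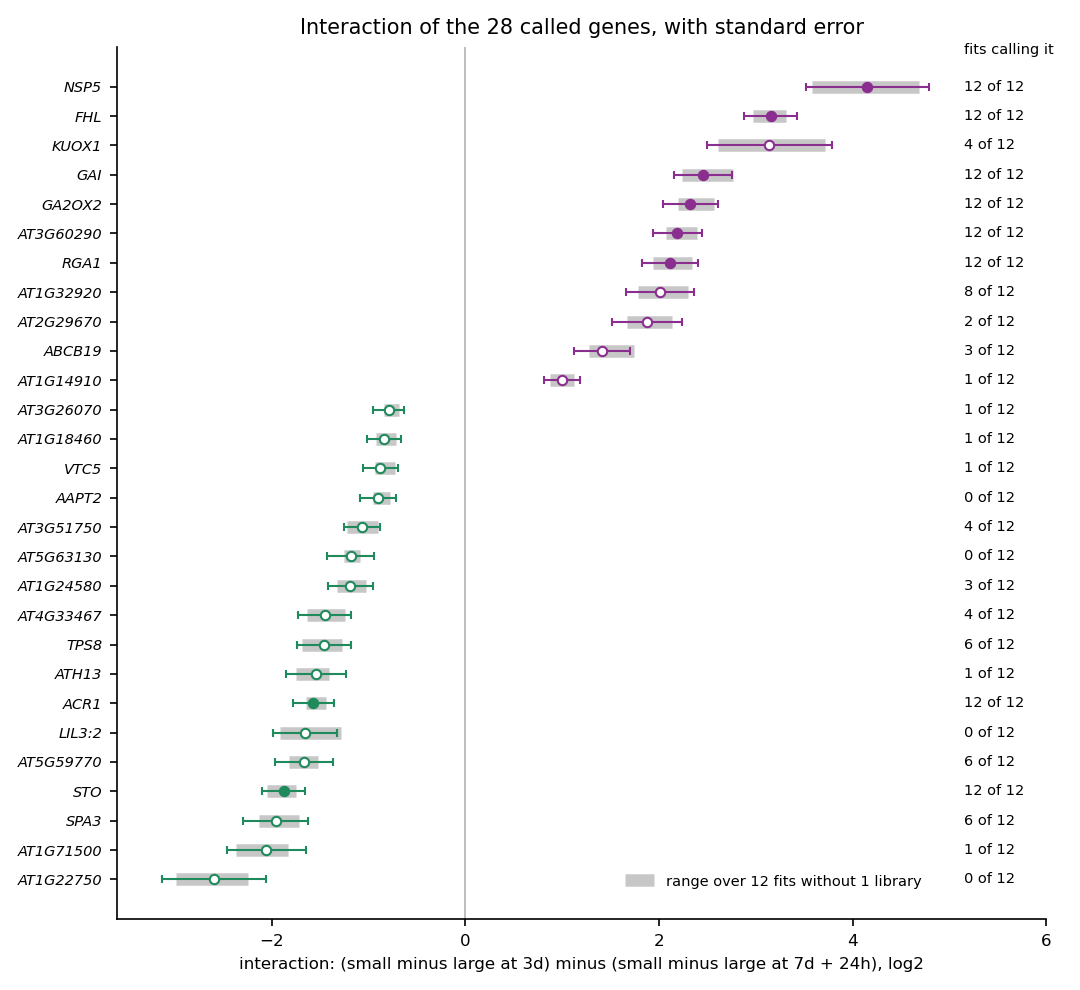
Interaction of each called gene on the log2 scale (points) with its standard error (thin bars); grey bars span the values of 12 fits that each left out 1 library, and the column on the right counts the fits that called the gene. Filled points are the 8 genes called in every such fit, and no grey bar reaches 0.

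Promoters are shown for 5 of the genes, 3 from the gibberellin and phytochrome A pathways and a pair of negative genes with several matches, because the bases before a gene's start are where light- and abscisic acid-regulated factors are known to bind. Each line gives 250 bases before the annotated start, 5′ to 3′ on the gene's strand, from the RefSeq assembly TAIR10.1, with matches to ACGTG on either strand in capitals. ACGTG is the core of the abscisic acid response element and also lies within the G-box CACGTG, which phytochrome-interacting bHLH factors bind.
FHL: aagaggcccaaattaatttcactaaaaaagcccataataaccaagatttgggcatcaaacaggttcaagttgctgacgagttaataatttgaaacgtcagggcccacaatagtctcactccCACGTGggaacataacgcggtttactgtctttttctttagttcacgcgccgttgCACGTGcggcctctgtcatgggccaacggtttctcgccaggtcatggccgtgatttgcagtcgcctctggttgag
GA2OX2: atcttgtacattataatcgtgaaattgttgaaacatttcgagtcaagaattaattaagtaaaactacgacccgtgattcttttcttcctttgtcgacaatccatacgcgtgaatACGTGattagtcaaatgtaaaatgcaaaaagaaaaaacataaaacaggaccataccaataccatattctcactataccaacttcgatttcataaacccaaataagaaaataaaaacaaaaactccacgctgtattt
GAI: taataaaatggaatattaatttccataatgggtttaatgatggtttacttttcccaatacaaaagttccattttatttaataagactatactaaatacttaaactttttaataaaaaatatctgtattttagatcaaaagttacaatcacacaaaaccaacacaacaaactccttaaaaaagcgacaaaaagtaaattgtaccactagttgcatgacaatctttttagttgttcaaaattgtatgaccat
AT4G33467: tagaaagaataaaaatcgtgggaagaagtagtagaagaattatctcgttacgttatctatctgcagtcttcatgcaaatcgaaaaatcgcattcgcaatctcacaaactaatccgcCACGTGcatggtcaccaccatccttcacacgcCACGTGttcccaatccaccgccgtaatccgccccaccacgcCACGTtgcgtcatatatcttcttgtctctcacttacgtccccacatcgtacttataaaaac
AT1G24580: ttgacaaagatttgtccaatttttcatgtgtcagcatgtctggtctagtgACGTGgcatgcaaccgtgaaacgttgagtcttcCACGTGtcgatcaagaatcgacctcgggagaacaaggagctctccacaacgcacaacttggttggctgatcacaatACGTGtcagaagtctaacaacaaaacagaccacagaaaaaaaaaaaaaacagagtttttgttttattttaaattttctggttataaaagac
The windows are chr5:437115-437364 (plus strand) for FHL, chr1:10537207-10537456 (plus) for GA2OX2, chr1:5148732-5148981 (plus) for GAI, chr4:16102221-16102470 (minus) for AT4G33467 and chr1:8709691-8709940 (plus) for AT1G24580. FHL and AT4G33467 held 2 G-boxes each and AT1G24580 held 1, GA2OX2 held ACGTG without a G-box, and GAI held no ACGTG in this window. ACGTG was present in 3 of the 11 positive promoters (27.3%) and in 8 of the 17 negative ones (47.1%), against 21.7% of the 6736 promoters of tested genes. The G-box was present in 1 of 11 (9.09%) and in 4 of 17 (23.5%), against 7.1%. The RY motif CATGCA was found in 2 of 11 and 2 of 17 promoters (6.13% of all), the telo box AAACCCTA in none of either (4.8% of all), and the site II motif TGGGCC in 1 of each (22.4% of all). These shares were not tested, and a match is a stretch of letters and not a shown binding site.

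Among genes of gibberellin signalling, the DELLA genes GAI and RGA1 (usually written RGA) and the gene of a gibberellin-inactivating enzyme, GA2OX2, had more transcript in small seeds than in large ones at 3d, and their sizes did not differ past the threshold at 7d + 24h. Values are CPM, that is, counts scaled to a common library size over the genes tested by the TMM method. GAI (AT1G14920, chromosome 1, 5148982 to 5151415, plus strand) had 712, 626 and 315 CPM in the libraries of small seeds at 3d and 90.8, 116 and 112 CPM in those of large seeds. At 7d + 24h it had 224, 258 and 224 CPM in small seeds and 249, 253 and 248 CPM in large seeds. Every small seed library at 3d was thus far above every large seed library, while at 7d + 24h the groups overlapped. The size difference of GAI was 2.37 on the log2 scale (SE 0.23, n = 3 libraries per group, edgeR FDR 7.03e-05) at 3d and -0.09 (SE 0.19, edgeR FDR 0.868) at 7d + 24h, which gave an interaction of 2.46 (SE 0.30, edgeR FDR 0.000605). RGA1 (AT2G01570, chromosome 2, 255247 to 257568, minus strand) stood at 424, 375 and 248 CPM in small seeds at 3d against 76.4, 106 and 88.6 CPM in large seeds. After recovery RGA1 stood at 145, 231 and 204 CPM in small and 210, 246 and 196 CPM in large seeds, again with overlap at the later time point only, and its interaction was 2.11 (SE 0.29, edgeR FDR 0.00166). GA2OX2 (AT1G30040, chromosome 1, 10537457 to 10540044, plus strand), a gibberellin 2-oxidase gene, measured 393, 377 and 223 CPM in small and 78.4, 86.5 and 100 CPM in large seeds at 3d. At 7d + 24h GA2OX2 measured 29.3, 36.0 and 36.0 CPM in small and 38.8, 51.0 and 45.7 CPM in large seeds, which did not overlap but did not differ past the threshold. Its interaction was 2.32 (SE 0.29, edgeR FDR 0.000605), made up of a difference of 1.90 (SE 0.20) at 3d and -0.42 (SE 0.20, edgeR FDR 0.308) later. Library 3 of small seeds at 3d was the lowest of its group for GAI, RGA1, GA2OX2 and FHL, and over the 12 fits without a library the interactions ranged from 2.24 to 2.76 for GAI, from 1.94 to 2.34 for RGA1 and from 2.19 to 2.57 for GA2OX2.

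The other DELLA genes did not follow GAI and RGA1. RGL2, the DELLA best known for holding back germination, had 413, 425 and 400 CPM in small and 355, 344 and 353 CPM in large seeds at 3d, and 381, 432 and 442 CPM in small against 344, 374 and 294 CPM in large seeds at 7d + 24h. Small seed libraries were above large seed libraries at both times, but neither difference passed the threshold. The size difference was 0.23 (edgeR FDR 0.495) at 3d and 0.31 (edgeR FDR 0.140) later, and the interaction was -0.08 (SE 0.15, edgeR FDR 0.919). Without the intergenic filter RGL2 rose with time in both sizes, by 0.42 in small (edgeR FDR 0.00417) and 0.44 in large seeds (edgeR FDR 0.00283), and on the scale of the genes tested its time changes were 0.02 and -0.06. RGL3 measured 46.6 to 67.1 CPM in small and 49.5 to 72.2 CPM in large seeds at 3d, then 111 to 160 CPM in small and 127 to 144 CPM in large seeds, with an interaction of -0.13 (SE 0.27, edgeR FDR 0.923). The fifth DELLA gene, RGL1, fell below the minimum of 1 count per seed, with 0 to 2 counts per library at 3d and 21 to 54 counts at 7d + 24h. Thus 2 of 4 DELLA genes tested were called, both positive, against 0.163% of all genes tested. Of the other gibberellin genes only GA20OX1, for a synthesis enzyme, was also tested, with an interaction of 0.48 (edgeR FDR 0.916). In these mixed tissues, fewer cells of a type and less RNA per cell cannot be told apart.

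FHL (AT5G02200, chromosome 5, 437365 to 439019, plus strand) encodes the FHY1-like protein that helps carry phytochrome A into the nucleus, and it had the lowest FDR of all genes tested. At 3d the small seed libraries held 429, 446 and 328 CPM and the large seed libraries 55.7, 45.0 and 41.0 CPM. At 7d + 24h the 6 libraries lay close together, with 22.6, 34.7 and 35.4 CPM in small and 35.2, 32.7 and 28.6 CPM in large seeds. Small seeds at 3d stood far above the other 3 groups, whose order among themselves depends on the scale. The size difference went from 3.10 (SE 0.19, edgeR FDR 1.6e-07) to -0.05 (SE 0.19, edgeR FDR 0.922), and the interaction was 3.15 (SE 0.27, edgeR FDR 2.4e-05). When every seed was thinned to 20000 counts it was 2.27, with an edgeR FDR of 0.0505. AT1G14910, whose product belongs to the ENTH/ANTH/VHS family of clathrin-linked membrane proteins, was also highest in small seeds at 3d, with a smaller size difference. It measured 268, 253 and 216 CPM in small and 120, 131 and 95.2 CPM in large seeds at 3d and 70.9 to 86.9 CPM in all libraries later, an interaction of 1.00 (SE 0.19, edgeR FDR 0.0318) that was called in 1 of the 12 fits without a library. ABCB19, a transporter that exports auxin, measured 114, 88.9 and 114 CPM in small and 41.3, 38.1 and 67.3 CPM in large seeds at 3d, and 76.7 to 118 CPM in small against 109 to 127 CPM in large seeds later. The size difference of ABCB19 passed the threshold at neither time point (edgeR FDR 0.0732 at 3d and 0.341 later). The interaction of ABCB19 was 1.41 (SE 0.29, edgeR FDR 0.0469), with 3 of 12 fits calling it and an edgeR FDR of up to 0.189 without 1 library.

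**Figure D3:**
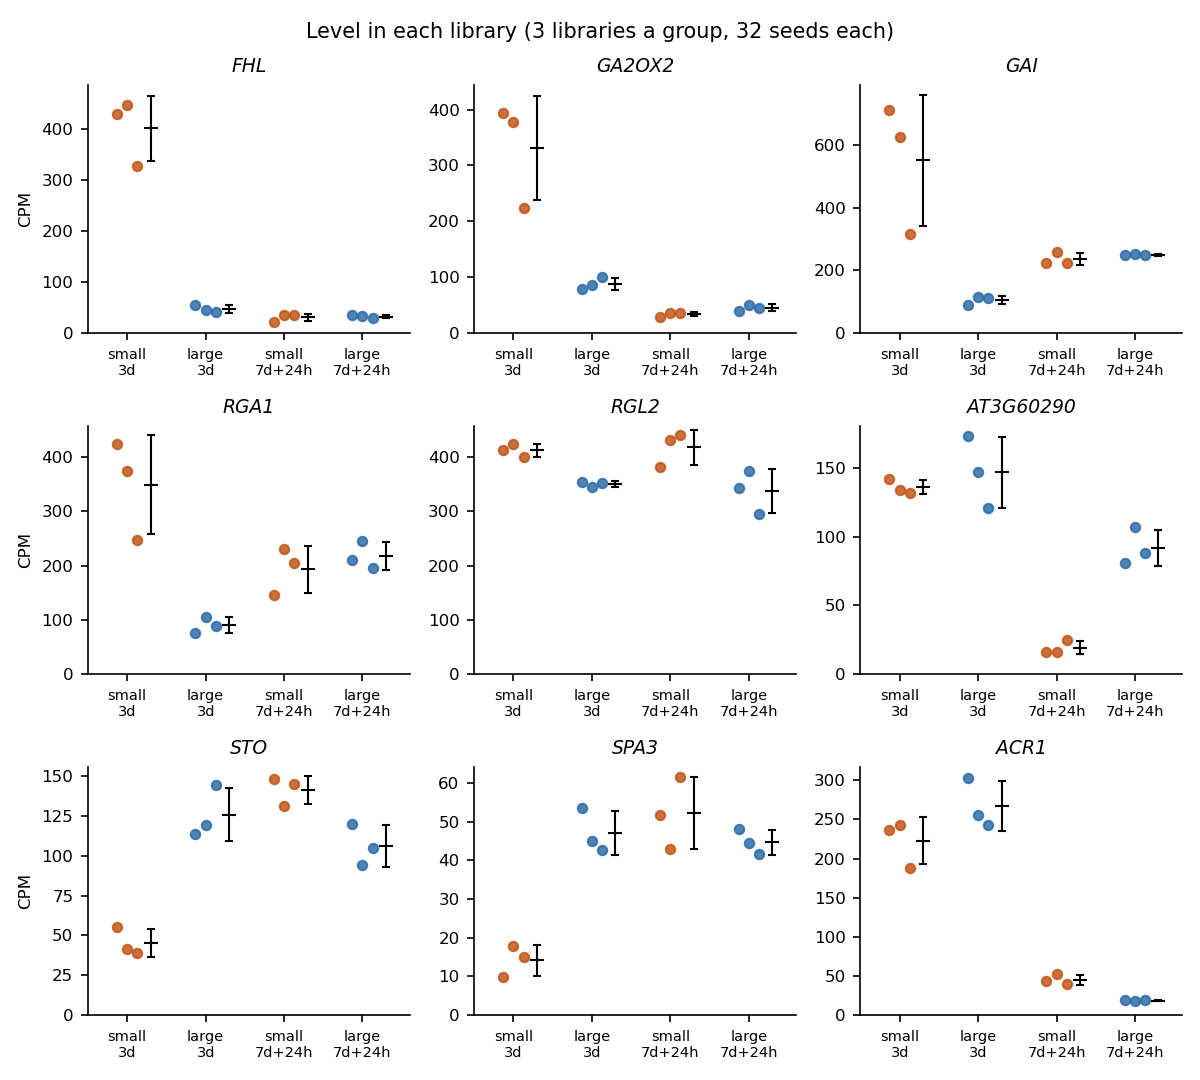
CPM of 9 genes in each library of small (orange) and large (blue) seeds at 3d and 7d + 24h; black marks are the group mean with its standard deviation (n = 3 libraries of 32 seeds). FHL, GA2OX2, GAI and RGA1 are high in small seeds at 3d. RGL2 is slightly higher in small seeds at both times, past the threshold at neither. AT3G60290 and ACR1 separate the sizes at 7d + 24h, and STO and SPA3 are low in small seeds at 3d only.

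Another 5 positive genes passed the threshold for a size difference only after recovery, where they were higher in large seeds. AT3G60290, a 2-oxoglutarate and Fe(II)-dependent oxygenase, measured 142, 134 and 132 CPM in small and 173, 147 and 121 CPM in large seeds at 3d, and the groups overlapped. At 7d + 24h it had 16.3, 16.2 and 24.6 CPM in small and 81.2, 107 and 88 CPM in large seeds, with no overlap. Its interaction was 2.19 (SE 0.25, edgeR FDR 0.000538), from a difference of -0.10 at 3d and of -2.29 (SE 0.18, edgeR FDR 4.59e-06) later. The gene overlaps AT3G60286 on the opposite strand, and since the sources used here do not state how strand was counted, the counts may be shared. KUOX1 is an oxidoreductase gene named for its induction by karrikins, the germination stimulants of smoke. In libraries 1, 2 and 3 at 3d it had 26.1, 43.5 and 83.8 CPM in small and 18.6, 36.3 and 65.7 CPM in large seeds. It thus rose with library number in both sizes, and the main fit had no replicate block. After recovery KUOX1 had 5.76, 7.03 and 15.0 CPM in small and 44.0, 89.6 and 61.3 CPM in large seeds, giving an interaction of 3.14 (SE 0.65, edgeR FDR 0.0471), and 4 of 12 fits without a library called it. AT2G29670, a tetratricopeptide repeat protein gene, had 20.2 to 37.3 CPM in small and 84.3 to 88 CPM in large seeds at 7d + 24h, against 21.7 to 39.1 CPM in all libraries at 3d, and its interaction was 1.87 (SE 0.36, edgeR FDR 0.0409). The uncharacterized gene AT1G32920 had 274, 357 and 462 CPM in small and 153, 187 and 240 CPM in large seeds at 3d. Later it had 58.1, 84.7 and 122 CPM in small and 140, 210 and 214 CPM in large seeds. Its level rose with library number in each group. Neither time point had overlapping libraries, but the contrast chose the gene and the 3d difference of 0.90 did not pass (edgeR FDR 0.201). A reversal was therefore not shown, and the interaction was 2.01 (SE 0.35, edgeR FDR 0.0212), called in 8 of 12 fits. AT2G29670 was called in 2 of the 12 fits, with an edgeR FDR of up to 0.137 without 1 library.

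NSP5, a nitrile specifier protein that directs the breakdown of glucosinolates, the defence compounds of the cabbage family, had the largest interaction of the called genes but few reads. It had 13, 20 and 7 counts in small and 3, 0 and 3 counts in large seeds at 3d. At 7d + 24h it had 80, 100 and 59 counts (38.4, 43.9 and 35.4 CPM) in small and 172, 253 and 283 counts (88.9, 125 and 105 CPM) in large seeds. Small seed libraries were above large seed libraries at 3d and below them later, without overlap at either time. The contrast chose the gene and the 3d difference of 2.72 did not pass (edgeR FDR 0.0815), so a reversal was not shown. The interaction of NSP5 was 4.15 (SE 0.64, edgeR FDR 0.00599). In library 2 of small seeds at 3d, 14 of the 20 NSP5 counts (70.0%) came from a single seed, and in library 2 of large seeds at 7d + 24h a single seed gave 104 of 253 (41.1%). Among libraries with at least 20 counts of the gene, no seed gave more than 26.2% for any of the other 27 genes. After thinning to 20000 counts per seed its edgeR FDR was 0.132.

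The negative genes STO and SPA3 were lower in small seeds at 3d. STO (AT1G06040, also known as BBX24), a B-box transcription factor that acts in light signalling, had 55.5, 41.5 and 39.1 CPM in small and 114, 119 and 144 CPM in large seeds at 3d. At 7d + 24h STO had 148, 131 and 145 CPM in small and 120, 94.1 and 105 CPM in large seeds. The sizes did not overlap at either time, but the contrast chose the gene and its later difference did not pass the threshold. A reversal of the order was therefore not shown. The interaction of STO was -1.88 (SE 0.22, edgeR FDR 0.000538), from -1.46 (SE 0.18, edgeR FDR 0.000805) to 0.41 (SE 0.12, edgeR FDR 0.0978). SPA3, a partner of the COP1 ubiquitin ligase that represses light responses in darkness, had 9.80, 17.8 and 14.9 CPM in small and 53.7, 45.0 and 42.7 CPM in large seeds at 3d. Later all 6 libraries of SPA3 lay between 41.6 and 61.7 CPM, and the interaction was -1.96 (SE 0.34, edgeR FDR 0.0205). STO and SPA3 overlap annotated genes on the opposite strand (AT1G06045 and AT3G15350), with the same limit on strand as above. STO was called in all 12 fits without a library and SPA3 in 6 of them, and with thinned seeds the edgeR FDR was 0.519 for STO and 0.463 for SPA3.

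The negative genes AT1G71500, ATH13, LIL3:2 and AT3G26070 encode plastid proteins, and the share of such genes among all genes tested was not counted. AT1G71500 and ATH13 were lower in small seeds at 3d, while LIL3:2 and AT3G26070 passed the threshold at neither time point (edgeR FDR of 0.0688 and 0.114 at 3d). AT1G71500, known as PSB33, a thylakoid protein of photosystem II, had 6, 3 and 3 counts in small and 12, 17 and 24 counts in large seeds at 3d, and 47.9 to 65.2 CPM in all libraries later. LIL3:2, a light-harvesting-like protein of chlorophyll synthesis, had 12, 3 and 10 counts in small and 15, 29 and 25 counts in large seeds at 3d, then 202 to 215 CPM in small and 164 to 189 CPM in large seeds. Both genes had more counts in each large than in each small seed library at 3d, and their interactions were -2.06 (SE 0.41, edgeR FDR 0.0434) and -1.66 (SE 0.33, edgeR FDR 0.0469). ATH13, an ABC1-like kinase of the chloroplast, measured 31.0, 29.6 and 35.4 CPM in small and 74.3, 90.0 and 103 CPM in large seeds at 3d and 25.5 to 41.8 CPM in all libraries later, an interaction of -1.54 (SE 0.31, edgeR FDR 0.0469). AT3G26070, a plastid fibrillin, had the smallest interaction of the called genes, -0.79 (SE 0.16, edgeR FDR 0.0469), with 87.5 to 106 CPM in small and 134 to 148 CPM in large seeds at 3d and 136 to 152 CPM in small and 117 to 125 CPM in large seeds later. Leaving out 1 library raised the edgeR FDR to as much as 0.154 for AT1G71500, 0.233 for LIL3:2, 0.165 for ATH13 and 0.199 for AT3G26070, and 1, 0, 1 and 1 of the 12 fits called them.

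AT5G59770 and AT1G24580 were also lower in small seeds at 3d, whereas AAPT2 and AT1G22750 passed at neither time point (edgeR FDR of 0.0815 and 0.0688 at 3d). AT5G59770, of the PTPLA family of fatty acid elongation enzymes, had 19.6, 25.7 and 18.6 CPM in small and 45.4, 74.4 and 77.1 CPM in large seeds at 3d and 56.7 to 67.1 CPM in all libraries later, with an interaction of -1.67 (SE 0.30, edgeR FDR 0.0212). AT1G24580, a RING/U-box protein gene, had 58.8, 88.9 and 70.8 CPM in small and 163, 164 and 125 CPM in large seeds at 3d and 98.5 to 141 CPM later, with an interaction of -1.19 (SE 0.23, edgeR FDR 0.0434). AAPT2, for an enzyme that makes membrane phospholipids, went from 69.1 to 74.5 CPM in small and 99.1 to 131 CPM in large seeds at 3d to 118 to 134 CPM in small and 98.4 to 116 CPM in large seeds, with an interaction of -0.90 (SE 0.19, edgeR FDR 0.0471). For these genes the large seed libraries at 3d lay entirely above the small seed libraries. AT1G22750, uncharacterized, had 1, 1 and 2 counts in small and 4, 7 and 11 counts in large seeds at 3d and 49.6 to 61.0 CPM later. Its interaction of -2.60 (SE 0.53, edgeR FDR 0.0471) rests on those few counts, and it shares bases with AT1G22740 on the same strand. Of the 12 fits without a library, 6 called AT5G59770, 3 called AT1G24580 and none called AAPT2 or AT1G22750.

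Another set of negative genes did not pass the threshold at 3d and was higher in small seeds after recovery. ACR1, which encodes an ACT domain repeat protein, had 237, 243 and 188 CPM in small and 303, 256 and 243 CPM in large seeds at 3d. At 7d + 24h ACR1 had 43.2, 52.3 and 39.5 CPM in small and 18.6, 17.3 and 18.6 CPM in large seeds, and its interaction was -1.57 (SE 0.21, edgeR FDR 0.00163). It fell with time in both sizes, by 2.29 in small and by 3.87 in large seeds on the log2 scale. TPS8, a class II trehalose phosphate synthase, a protein family of sugar signalling, had 313, 328 and 231 CPM in small and 248, 216 and 194 CPM in large seeds at 3d and 34.1, 31.2 and 28.2 CPM in small and 11.4, 7.92 and 6.68 CPM in large seeds later. The interaction of TPS8 was -1.46 (SE 0.27, edgeR FDR 0.0318), and 6 of 12 fits without a library called it, with an edgeR FDR of up to 0.171. AT4G33467, an uncharacterized gene, had 354 to 611 CPM in small and 466 to 619 CPM in large seeds at 3d and 220, 187 and 270 CPM in small and 115, 86.6 and 79.4 CPM in large seeds later. It overlaps AT4G33465 on the opposite strand, and its interaction was -1.45 (SE 0.27, edgeR FDR 0.0318), with 4 of 12 fits calling it.

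The other genes of this kind had interactions close to 1 on the log2 scale. VTC5, for the GDP-L-galactose phosphorylase of vitamin C synthesis, had 152, 170 and 179 CPM in small and 196, 249 and 195 CPM in large seeds at 3d and 71.6, 72.9 and 70.1 CPM in small and 54.3, 50.0 and 46.4 CPM in large seeds later. Small seeds were below large seeds at 3d and above them after recovery in every library, and the interaction was -0.88 (SE 0.18, edgeR FDR 0.0469). AT5G63130, a gene with a Phox/Bem1p domain, had 52.2 to 63.2 CPM in small and 64.0 to 76.1 CPM in large seeds at 3d and 35.1 to 44.3 CPM in small and 19.3 to 20.3 CPM in large seeds at 7d + 24h, with an interaction of -1.19 (SE 0.25, edgeR FDR 0.0471). AT1G18460, of the alpha/beta-hydrolase family, had 182 to 229 CPM in small and 239 to 250 CPM in large seeds at 3d and 94.8 to 113 CPM in small and 60.9 to 73.8 CPM in large seeds at 7d + 24h, with an interaction of -0.84 (SE 0.17, edgeR FDR 0.0471). AT3G51750, uncharacterized, had 101 to 152 CPM in small and 176 to 185 CPM in large seeds at 3d and 79.0 to 84.5 CPM in small and 52.0 to 59.9 CPM in large seeds at 7d + 24h, with an interaction of -1.07 (SE 0.19, edgeR FDR 0.0212) made up of -0.52 at 3d and 0.54 later. In all 4 genes the sizes did not overlap at either time, and their order at 3d was the opposite of that after recovery. The contrast chose these genes, and none of their 3d differences passed the threshold. The edgeR FDR at 3d was 0.332 for VTC5, 0.740 for AT5G63130, 0.635 for AT1G18460 and 0.177 for AT3G51750. A reversal was therefore not shown. AT3G51750 overlaps AT3G51760 on its own strand and AT1G18460 overlaps AT1G18470 on the other, and these 4 genes were called in 1 (VTC5), 0 (AT5G63130), 1 (AT1G18460) and 4 (AT3G51750) of 12 fits, with edgeR FDR up to 0.191, 0.233, 0.209 and 0.119.

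At the threshold itself, AT1G18460, AAPT2 and AT5G63130 were the last genes inside it, each with an FDR of 0.0471 (interactions of -0.84, -0.90 and -1.19). AT4G32270 at 0.063, AT4G18810 at 0.074 and AT3G03170 at 0.0827 were the first outside it, with interactions of -1.26, -1.42 and -1.20.

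With time, the same interaction came about in different ways. Among the positive genes, GAI and RGA1 fell in small seeds, by 1.23 and by 0.86 on the log2 scale, and rose in large seeds by 1.23 and 1.26. FHL, GA2OX2, AT3G60290 and AT1G14910 fell in both sizes, more in small seeds, and NSP5, AT2G29670 and ABCB19 rose past the threshold only in large seeds, by 4.85, 1.68 and 1.26. In small seeds only, KUOX1 fell by 2.49 and AT1G32920 fell by 2.06. Of the 17 negative genes, 7 fell in both sizes, 3 rose in both (AT1G71500, LIL3:2 and AT1G22750), 5 rose in small seeds only, 1 (AT1G24580) rose in small and fell in large seeds and 1 (ATH13) fell in large seeds only. Changes with time depend on the scale, because the genes tested held 17.5 to 20.6% of all gene counts at 3d and 43.6 to 53.3% at 7d + 24h. Without the intergenic filter the median time change of the same genes moved up by 0.40 in small and by 0.50 in large seeds, and the interaction by 0.10. On that scale the large seeds' change was no longer past the threshold in FHL (-0.05), GA2OX2 (-0.48), AT3G60290 (-0.17) and AT1G14910 (-0.04), and RGA1 was at -0.45 in small seeds (edgeR FDR 0.0598). NSP5 then rose in small seeds too, by 1.10, and KUOX1 rose in large seeds by 1.14. Of the negative genes on that scale, AT3G51750 and AT5G63130 no longer fell past the threshold in small seeds (-0.22 and -0.21), AT3G26070 and AAPT2 rose in both sizes, ATH13 rose in small seeds by 0.55, and AT1G24580 stood at 0.13 in large seeds. The time change in large seeds turned from negative to positive with the scale in AT3G26070, AT1G24580, AT5G59770, STO, SPA3, AAPT2 and AT1G32920, and that in small seeds did so in AT2G29670 and ABCB19.

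Summed mRNA of genes listed as markers of the seed's tissues also shifted with size and time. The summed level of 6 endosperm markers (EPR1, EXPA2, ZOU, ABCG25, ABCG31 and MAN7) was 139 to 270 CPM of all gene counts in small and 83.5 to 115 in large seeds at 3d, and 382 to 792 in small and 678 to 991 in large seeds at 7d + 24h. Summed mRNA of 10 embryo storage protein and oleosin genes was 186170 to 189730 CPM in small and 191410 to 200030 in large seeds at 3d, and 13853 to 21821 CPM in small and 12785 to 15310 in large seeds later. The endosperm sum was thus higher in small seeds at 3d, and its ranges overlapped between sizes later. Summed storage mRNA was lower in small seeds at 3d, and its later ranges overlapped too. The 4 genes listed as seed coat markers summed to 0.935 to 2.58 CPM at 3d and 68.0 to 128 later, in ranges that overlapped between sizes. Only 1 of the 4 averaged 1 or more counts per seed, so their sum is not read as an amount of seed coat. No marker of these lists was at 0 in a whole group. Among the markers tested singly, ABCG25 had an interaction of 1.26 (edgeR FDR 0.621) and EXPA2 one of -0.55 (edgeR FDR 0.978). The part of these shifts, and of the intergenic share, in the interactions was not tested.

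Single seeds give the share in which a gene was detected. After each seed was thinned to 20000 counts, which left 378 of 384 seeds (95 small and 92 large at 3d, 95 small and 96 large at 7d + 24h), FHL had at least 1 count in 76.8% of small and 17.4% of large seeds at 3d. Later these shares were 33.7% and 26%, and before thinning the 4 shares were 97.9%, 55.2%, 65.6% and 83.3%. GAI was found in 86.3% of small and 33.7% of large seeds at 3d and in 72.6% and 85.4% later, and RGA1 in 75.8% and 26.1%, then 63.2% and 76.0%. Over the single libraries at 3d, FHL was found in 71.0 to 87.5% of the small and 12.5 to 20.0% of the large seeds, ranges that did not overlap. For STO the shares were 18.9% of small and 42.4% of large seeds at 3d and 68.4% and 64.6% later. KUOX1 was found in 4.21% of small and 43.8% of large seeds after recovery, and TPS8 in 17.9% and 5.21%. NSP5 was found in 6.32% of small and in 0% of large seeds at 3d after thinning, which is near the level of single counts. Seeds of one library are not replicates, and these shares carry no test.

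**Figure D4:**
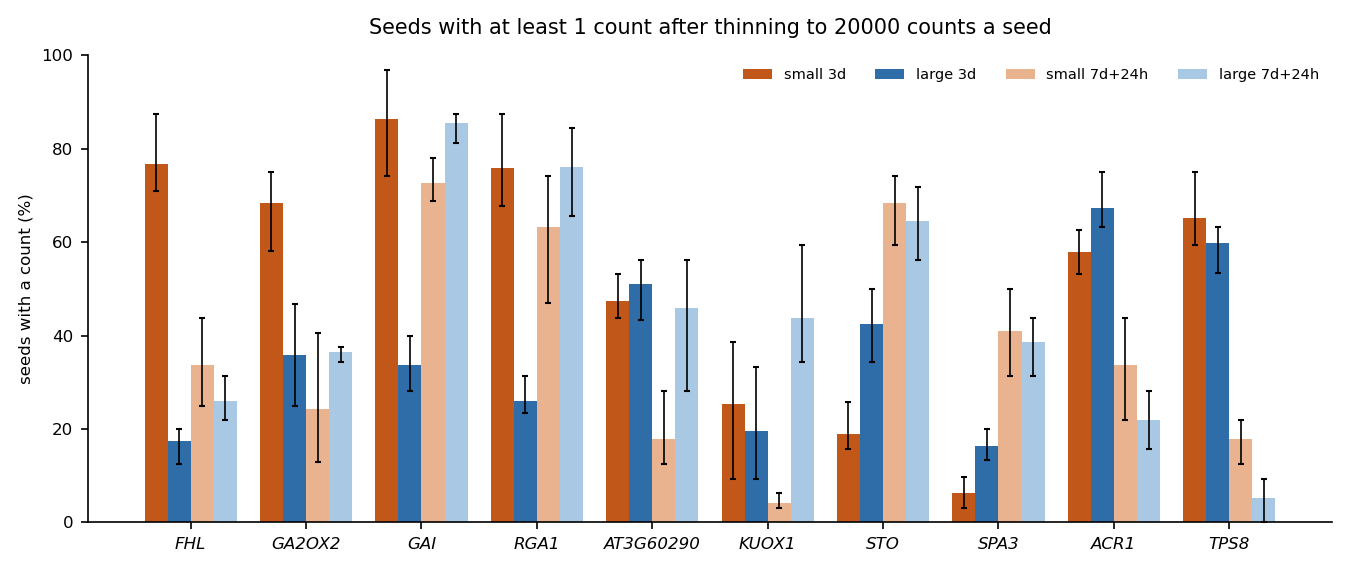
Percentage of seeds with at least 1 count of each of 10 genes after every seed was thinned to 20000 counts, in the 4 groups (92 to 96 seeds each); bars start at 0 and the thin lines span the lowest and highest of the 3 libraries. FHL, GAI and RGA1 are found in most small seeds and in a minority of large seeds at 3d, and KUOX1 and AT3G60290 are found least often in small seeds after recovery.

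Lists of seed genes are given by their counts of calls, which are read against 0.163% positive and 0.252% negative calls (0.415% in all) over all genes tested. None of 238 cytosolic ribosomal protein genes and none of 31 proteasome subunit genes was called, with median interactions of 0.11 and 0.20 against -0.03 for all genes tested. The nuclear photosynthesis genes gave 1 negative call (LIL3:2) of 21, with a median of -0.02. None of 14 oil mobilization genes, 40 heat shock protein genes, 16 storage and late embryogenesis abundant (LEA) protein genes, 43 translation factors or 11 tubulins was called, with medians of 0.14, -0.13, -0.01, 0.03 and 0.00. Nor was any of 15 organelle ribosomal protein genes, 11 expansin, XTH and mannanase genes, 8 aquaporins, 4 DNA replication licensing genes or 18 genes of the organelle genomes, with medians of 0.05, -0.04, 0.51, 0.03 and -0.47. Of 2 gene clusters that the study defined on these seeds, and which are therefore no independent evidence, cluster 1 gave 0 calls of 433 (median 0.10) and cluster 2 gave 2 negative calls, ACR1 and TPS8, of 127 (median -0.15). Most abscisic acid genes did not pass the filter on low counts or the intergenic filter: 3 of 14 receptors, 1 of 10 clade A PP2C phosphatases (with RDO5), 3 of 10 SnRK2 kinases, 2 of 13 synthesis and breakdown genes and 1 of 12 transcription factors and dormancy genes were tested, and none was called. Of 16 light signalling genes, 4 were tested and none was called. DOG1, a main determinant of seed dormancy, had 74, 161 and 224 counts in small and 107, 249 and 413 counts in large seeds at 3d and 33 to 81 counts in all libraries later, and it was removed by the filter. Without it DOG1 had an interaction of -0.39 (SE 0.71, edgeR FDR 0.879).

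When the intergenic filter was not applied, 66 of 12078 genes were called (0.546%), 22 positive (0.182%) and 44 negative (0.364%), and 18 of the 28 genes above remained called. The 47 added genes that the filter had removed were 12 positive and 35 negative, and their share of counts correlated with the intergenic share of seeds above 0.3 in at least 1 group. The highest such correlation was 0.73 for PIL2, 0.64 for TZP and EBF2, 0.59 for AT3G17520 and 0.58 for SPA1 and HSFA9. It was 0.56 for HAB1, 0.55 for HB-2, 0.49 for PHYB and STS, 0.46 for BIM2, 0.33 for ETR2 and 0.30 for BIM1. Added genes outside the lists are named here after their values were seen, and their calls were not tested by leaving out libraries. On the lists, the photoreceptor gene PHYB had 59.2, 65.0 and 61.4 CPM in small and 23.4, 28.1 and 38.7 CPM in large seeds at 3d and 27.4 to 35.1 CPM in all libraries later, an interaction of 1.18 (SE 0.21, edgeR FDR 0.0187). PIL2, also known as PIF6, a phytochrome-interacting factor, had 747, 720 and 588 CPM in small and 328, 340 and 355 CPM in large seeds at 3d and 96.4 to 169 CPM later, an interaction of 1.15 (SE 0.23, edgeR FDR 0.0442). PHYB had the pattern of FHL, high in small seeds at 3d only. PIL2 was higher in small than in large seeds at 3d, and both sizes then stood above all later libraries. PHYB and PIL2 were the 2 calls among 14 measured light signalling genes. HAB1, a PP2C phosphatase that turns down abscisic acid signalling, had 70.8 to 81.0 CPM in small and 104 to 136 CPM in large seeds at 3d and 35.5 to 44.5 CPM in small and 29.1 to 32.1 CPM in large seeds later, an interaction of -1.03 (SE 0.18, edgeR FDR 0.0166). It was the only call among 9 genes of its list. The 52 storage and LEA genes gave 4 negative calls, the LEA genes AT1G22600, AT3G17520 and AT3G53040 and the oleosin family gene AT1G48990, with interactions from -1.30 to -0.86, and a list median of -0.43 against -0.01 for all genes. AT3G17520 had 3627, 3396 and 3010 CPM in small and 4509, 4205 and 3830 CPM in large seeds at 3d and 1447, 1098 and 1283 CPM in small and 794, 618 and 535 CPM in large seeds later, that is, no overlap in either.

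A few of the added genes outside the lists are given as examples, picked by their known roles, and they say nothing of how often their pathways were called. HB-2, a homeodomain transcription factor known for its induction by shade, had 241, 115 and 34.0 CPM in small and 5.99, 8.76 and 11.6 CPM in large seeds at 3d and 8.87 to 23.7 CPM later, an interaction of 4.56 (SE 0.79, edgeR FDR 0.0176). Its small seed libraries at 3d differed widely among themselves, yet each was above every large seed library. SPA1, a COP1 partner like SPA3, had 6.49, 2.64 and 4.13 CPM in small and 19.0, 18.9 and 30.7 CPM in large seeds at 3d and 29.5 to 42.9 CPM in small and 46.6 to 52.6 CPM in large seeds later, an interaction of -1.91 (SE 0.37, edgeR FDR 0.0306). TZP, a zinc knuckle protein of phytochrome signalling, had 3.03, 3.17 and 5.67 CPM in small and 18.0, 27.2 and 42.2 CPM in large seeds at 3d, an interaction of -2.54 (SE 0.44, edgeR FDR 0.0183). BIM1 and BIM2, bHLH partners of the brassinosteroid factor BES1, had every small seed library above every large seed library at 3d, with interactions of 1.98 (SE 0.24, edgeR FDR 0.00137) and 1.67 (SE 0.25, edgeR FDR 0.00694). The ethylene receptor gene ETR2 and EBF2, whose F-box protein removes the ethylene factor EIN3, had interactions of 1.83 (SE 0.33, edgeR FDR 0.0211) and 1.16 (SE 0.21, edgeR FDR 0.0212). HSFA9, the heat shock factor of seed maturation, had an interaction of -1.09 (SE 0.21, edgeR FDR 0.0302), and the stachyose synthase gene STS one of -1.09 (SE 0.19, edgeR FDR 0.0187).

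**Figure D5:**
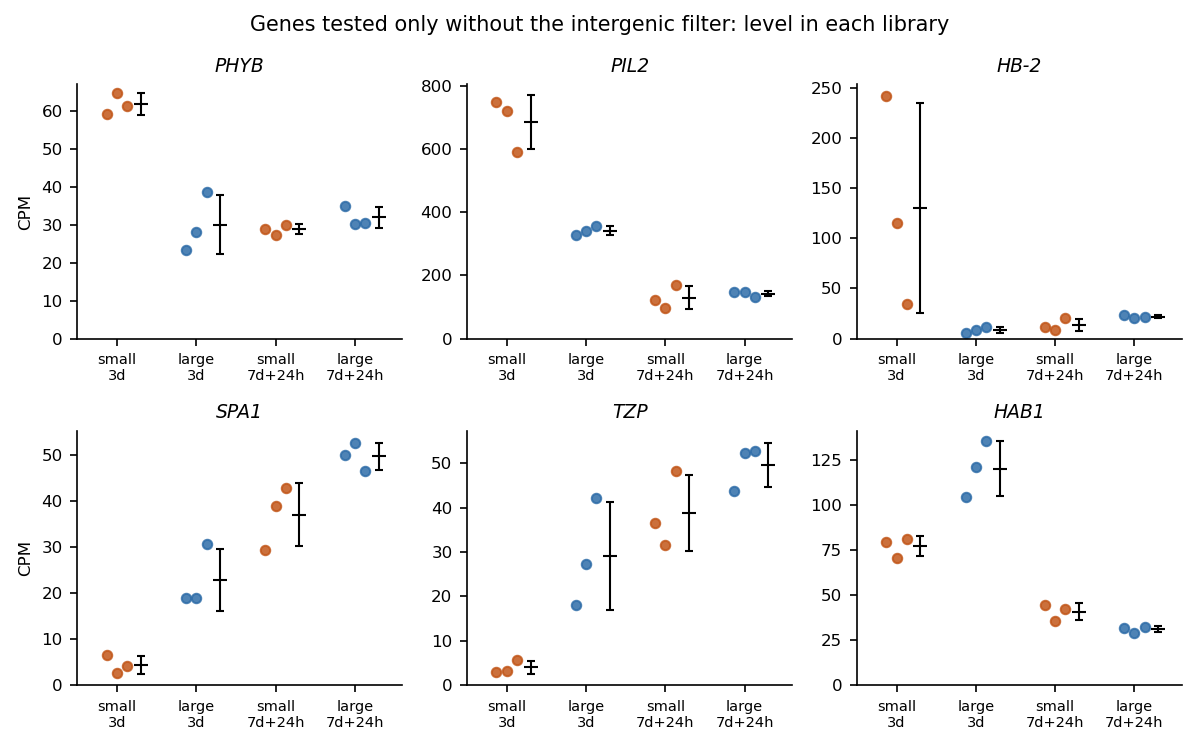
CPM, scaled on 12078 genes, of 6 genes that the intergenic filter removed, in each library of small (orange) and large (blue) seeds; black marks are the group mean with its standard deviation (n = 3 libraries). PHYB, PIL2 and HB-2 are high in small seeds at 3d, SPA1 and TZP are lowest there, and HAB1 is higher in large seeds at 3d and slightly higher in small seeds later.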

How the data were processed

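Single seeds were sequenced by a 3′ RNA-seq protocol in 12 libraries of 32 seeds. The authors deposited raw counts per gene and seed. The submitters' processing notes list STAR 2.7.8a, the TAIR10 genome, Seurat and DESeq2. The counting tool and its strand setting are not given in the sources used here. Reads outside genes (9.76%) and ambiguous reads (0.256%) entered neither the library sizes nor any test, and the dry-seed table, which holds 1 sample, was not used. Of 37336 gene IDs, 37051 matched the RefSeq annotation.

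Counts were summed over the seeds of a library. Genes were kept if they averaged 1 or more counts per seed and had a Pearson correlation of at most 0.3, in every group, between their share of a seed's counts and the seed's intergenic share. The study words this filter on read numbers; that version left 435 genes and is an alternative. The 4 groups of 3 libraries entered 1 edgeR 4.0.16 quasi-likelihood fit with TMM factors (limma 3.58.1, R 4.3.3), and p-values were adjusted by Benjamini-Hochberg over 6754 genes at 0.05. DESeq2 1.42.0 was an alternative. In all, 22 alternatives were run, 12 of them without 1 library each. Python 3.11.15, numpy 2.4.6, pandas 2.3.3 and matplotlib 3.10.9 were used for tables, motifs and figures. Promoters were read from the RefSeq genome TAIR10.1.

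Genes named by rule had at least 20 CPM in a group and were the 12 largest interactions per direction, up to 3 calls of each gene list, the DELLA genes, DOG1, and the 3 genes on each side of the threshold. AT3G26070, VTC5 and AT3G51750, and genes called without the intergenic filter, were added after their values were seen. The genes, lists and rules were chosen with earlier results of these data known. The size differences at each time use the same libraries as the interaction. Depth per seed ranged from 3962 to 463684 counts, and the genes tested held fewer counts at 3d than later, so small differences at 3d were less detectable.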

Additional observations from a re-analysis of the deposited data

Results flagged for a closer look

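The size difference differed between the time points, by the edgeR quasi-likelihood test of the interaction, in the 28 genes described above. The log2 interactions with a larger small-over-large ratio at 3d than at 7d + 24h were those of NSP5 (4.15), FHL (3.15), KUOX1 (3.14), GAI (2.46), GA2OX2 (2.32), AT3G60290 (2.19), RGA1 (2.11), AT1G32920 (2.01), AT2G29670 (1.87), ABCB19 (1.41) and AT1G14910 (1.00). Those with a smaller ratio at 3d were AT1G22750 (-2.60), AT1G71500 (-2.06), SPA3 (-1.96), STO (-1.88), AT5G59770 (-1.67), LIL3:2 (-1.66), ACR1 (-1.57), ATH13 (-1.54), TPS8 (-1.46), AT4G33467 (-1.45), AT1G24580 (-1.19), AT5G63130 (-1.19), AT3G51750 (-1.07), AAPT2 (-0.90), VTC5 (-0.88), AT1G18460 (-0.84) and AT3G26070 (-0.79). No explanation of these differences was tested.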

How the results depend on the processing

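The number of genes called by the interaction and the balance of its directions depended on the filters and the libraries, while no called gene turned around. Against 28 calls (11 positive, 17 negative), there were 66 without the intergenic filter (22 and 44). Without the filter on low counts and without the intergenic filter, 458 of 33854 genes were called (182 and 276, 23 of the 28 among them). With the intergenic filter and genes averaging 0.1 or more counts per seed, 17 of 11026 were called (10 and 7). There were 9 calls with seeds thinned to 20000 counts (6 and 3), which holds fewer counts by construction. With the intergenic filter on raw read numbers, edgeR called 0 of 435 genes (0 and 0), of which 30 had an unadjusted p below 0.05, and DESeq2 was not run on that set. Leaving out 1 library gave 8 to 22 calls, 6 to 14 positive and 2 to 12 negative, and positive calls, 39.3% of the 28, made up 45.5 to 75% of them. The lowest count, 8, came without library 2 of large seeds at 3d and without libraries 2 and 3 of large seeds at 7d + 24h. Without library 3 of small seeds at 7d + 24h, which had the highest intergenic share, 14 were called. DESeq2 called 27, upper-quartile scaling 28, the fit without seeds under 20000 counts 24 and that without organelle genes 28. Over the named genes, 437 values under an alternative kept their direction and their side of the threshold, 256 kept the direction but no longer passed it, 1 newly passed it and 0 turned around. The replicate block gave 21 calls (10 positive, 11 negative, 19 of them among the 28). The sources used here do not state whether replicate numbers pair libraries across groups, and the main fit had no replicate block. Deviations from the group means correlated above 0.1 in 5 of 18 same-numbered pairs (mean correlation 0.059). They did so in 4 of 36 differently numbered pairs (mean -0.029). Of the 12 libraries, 4, library 1 of each group, correlated best with their own number. A part shared by libraries of the same number was thus not excluded. Depth limits the 3d values most, where genes such as AT1G22750, AT1G71500 and NSP5 had few counts in small or large seeds.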
